A study of Sus scrofa with 55 samples.

Results

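RARRES1, RAB13, ARRDC4 and UBB were 4 transcripts whose mean level over 55 libraries of single pig oocytes was high. Their level in single libraries ran over a wide range. They were chosen by their symbols among 25880 gene IDs in the table of raw counts, because their mean level in CPM (counts of a gene per 1000000 counts of the oocyte) was high and their range wide. Each symbol matched 1 ID: ENSSSCG00000028623 for RARRES1, ENSSSCG00000006564 for RAB13, ENSSSCG00000002252 for ARRDC4 and ENSSSCG00000018033 for UBB. Because level and spread were what selected them, both are given as a description without a test. The SD of log2 CPM of UBB, 1.98, was below the median of 2.84 for the genes with a mean of at least 1000 CPM. Without 15 libraries in which granulosa markers exceeded oocyte genes, the mean of RAB13 was 238 CPM and that of ARRDC4 162.

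The material was 55 single oocytes of 4 wild-type Landrace Yorkshire gilts aged 208 to 210 days. A dose of 5 IU of gonadotropin from pregnant mare serum was given to each gilt 48 hours before the ovaries were taken, and no untreated animal was among the samples. The cytoplasmic RNA of each oocyte, separated from its nucleus, was amplified by Smart-seq2, a full-length cDNA protocol without molecular identifiers. The oocytes came from antral follicles of 5 stages, with 11, 12, 11, 11 and 10 oocytes from stage 1 to stage 5. Gilt 201 gave 14 oocytes, gilt 205 gave 9, gilt 801 gave 12 and gilt 803 gave 20, and gilt 801 had none at stage 5. Oocytes of 1 gilt share an animal, so conditions were compared over gilts.

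The growing oocyte stores messenger RNA that it will translate later, after transcription has stopped, and it is joined to the surrounding cumulus granulosa cells by projections that cross the zona pellucida. RARRES1 encodes a retinoic acid-responsive membrane protein related to the carboxypeptidase inhibitor latexin. RAB13 encodes a small GTPase of vesicle transport that delivers proteins to the cell surface and to tight junctions, and its messenger RNA is known from cultured mouse and human cells to be carried into protrusions. ARRDC4 encodes an alpha-arrestin, an adaptor that helps ubiquitin ligases act on membrane proteins, including glucose transporters. UBB encodes a chain of ubiquitin repeats and is one of several genes that supply ubiquitin, the small protein that marks others for degradation. ZP3, used here as the reference transcript of the oocyte, encodes a zona pellucida glycoprotein.

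Total counts ran from 151104 to 38282850 per oocyte, with a median of 12139540, and 3 libraries, all of gilt 803, held under 1000000. The 13 mitochondrially encoded protein genes took 2.1% to 91.8% of an oocyte's counts, with a median of 71.0%. They took a median of 83.9% in gilt 201, 85.3% in gilt 205, 67.6% in gilt 801 and 11.5% in gilt 803. In 15 libraries, 13 of them from gilt 803, the summed markers of granulosa and cumulus cells exceeded the summed oocyte genes. Of 26 such markers 23 were in the table, 5 to 21 of them were detected per oocyte, and AMH, a defining granulosa marker, had 0 counts in every oocyte. Their summed level ran from 21 to 17680 CPM at stage 1, from 25.5 to 19570 at stage 2, from 38.2 to 33033 at stage 3, from 30.5 to 27391 at stage 4 and from 61.9 to 17848 at stage 5. The label oocyte therefore did not match the leading markers of these 15 libraries, and the mean levels, spreads, correlations and stage differences of the 4 genes are given with and without them where they rest on them.

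The mean level was 3254 CPM for RARRES1, 1976 for UBB, 1769 for ARRDC4 and 1312 for RAB13, against 5735 CPM for ZP3. The median oocyte held far less, with 339 CPM of RARRES1, 769 of UBB, 86.3 of ARRDC4 and 39.2 of RAB13. A few oocytes therefore carried the mean: the highest 2 held over 50% of all RAB13 when CPM were summed over oocytes, and likewise of ARRDC4, whereas it took 4 oocytes for RARRES1 and 9 for UBB. The single highest oocyte held 40.3% of the summed ARRDC4, 32.7% of RAB13, 15.3% of RARRES1 and 10.1% of UBB. In the 40 oocytes left without the granulosa-led libraries the mean was 632 CPM for RARRES1, 238 for RAB13, 162 for ARRDC4 and 1362 for UBB.

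Among the 31 genes with a mean of at least 1000 CPM, ARRDC4 had the highest coefficient of variation (SD over mean), 3.57, and RAB13 the next, 2.94. RARRES1 ranked 5, at 2.05. UBB ranked 15, at 1.19, close to the median of 1.08 for the 31 genes. On the log2(CPM + 1) scale the SD over oocytes was 3.67 for RAB13, 3.31 for ARRDC4, 2.97 for RARRES1 and 1.98 for UBB, beside a median of 2.84 for the abundant genes. RAB13 ranked 6 of the 31 on that scale, ARRDC4 7, RARRES1 11 and UBB 21. Without the granulosa-led libraries the coefficient of variation was 4.30 for RAB13, 2.74 for RARRES1, 2.18 for ARRDC4 and 1.67 for UBB, and they ranked 1, 4, 9 and 13 among the same 31 genes. The SD of the log2 values was then 2.73, 1.97, 2.35 and 1.75 in that order, beside a median of 1.93. With the 13 mitochondrially encoded protein genes taken out of the list and the denominator, 18 genes were left and UBB varied least. Its coefficient of variation was 0.68 beside a median of 1.42, and its log2 SD 1.25 beside 3.03. UBB also ranked last, at 0.78, without the granulosa-led libraries. ARRDC4, RAB13 and RARRES1 ranked 1, 2 and 5 of the 18 over all oocytes by coefficient of variation. By log2 SD they ranked 9, 5 and 12, at 3.07, 3.50 and 2.02. Without the granulosa-led libraries they ranked 4, 3 and 5 by coefficient of variation, and 3, 1 and 16 by log2 SD.

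**Figure D1:**
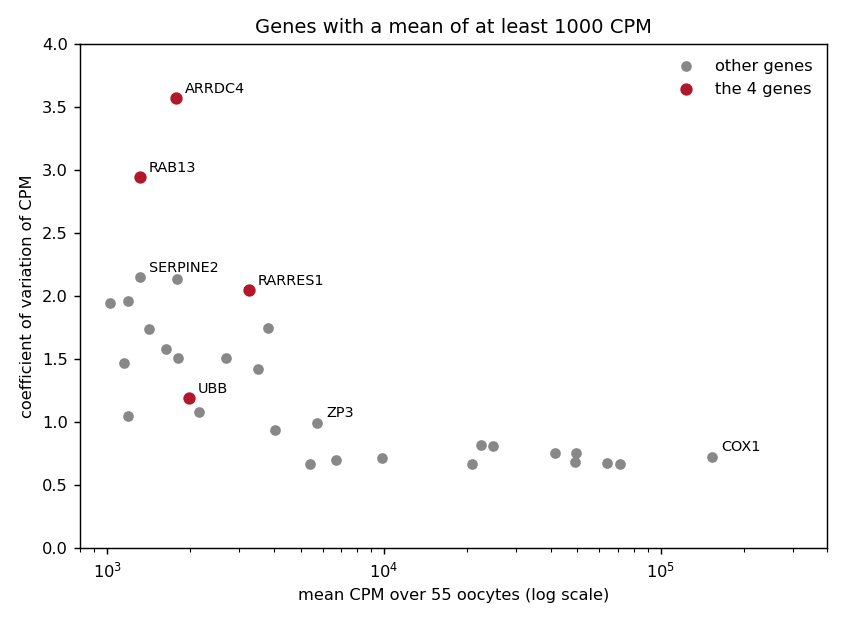
Coefficient of variation of CPM over 55 oocytes against mean CPM (log scale) for the 31 genes with a mean of at least 1000 CPM, 1 point per gene, with the 4 described genes in red. ARRDC4 at 3.57 and RAB13 at 2.94 lie above every other gene, while UBB at 1.19 lies among the rest.

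RARRES1 was detected in all 55 oocytes, from 15.8 CPM in a stage 5 oocyte of gilt 201 to 27465 CPM in a stage 4 oocyte of gilt 803. It ranged from 34.9 to 26427 CPM with a median of 493 at stage 1, from 59.9 to 26456 with a median of 166 at stage 2, and from 41.3 to 15728 with a median of 165 at stage 3. At stage 4 it ranged from 39.5 to 27465 CPM with a median of 648, and at stage 5 from 15.8 to 7856 with a median of 206. The ranges of all 5 stages overlapped, and no neighbours in the order of stage medians (4, 1, 5, 2, 3) were further apart than that spread. These ranges are of single oocytes pooled over gilts.

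By animal, RARRES1 had a median of 81.7 CPM in gilt 201, 165 in gilt 205, 471 in gilt 801 and 3895 in gilt 803. The highest value in gilt 205 was 493 CPM, below the median of gilt 803. Of the 10 highest oocytes 8 were of gilt 803, and 8 were among the 15 libraries led by granulosa markers. The top oocyte outside gilt 803 was a stage 1 oocyte of gilt 801 with 26427 CPM, which held 17680 CPM of granulosa markers and only 45.6 CPM of ZP3. RARRES1 and the granulosa marker sum had a Spearman rho of 0.83 over 55 oocytes, beside a median of 0.53 for the 576 genes of at least 100 CPM that were compared. Within animals rho with the granulosa markers was 0.34 in gilt 201, 0.37 in gilt 205, 0.84 in gilt 801 and 0.92 in gilt 803, and it was 0.57 over the 40 oocytes left without the granulosa-led libraries. Whether RNA of those cells supplied part of the RARRES1 counts was not tested.

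RARRES1 fell in rank as the mitochondrial share rose, with a rho of -0.88 over 55 oocytes. Only 9 of 584 genes of at least 100 CPM had a lower value, and the median gene had -0.63. The same sign and a similar size were found within every animal, at -0.80 in gilt 201, -0.78 in gilt 205, -0.83 in gilt 801 and -0.66 in gilt 803. Within single stages the value lay between -0.91 and -0.85, and without the granulosa-led libraries it was -0.84. CPM share a denominator with the mitochondrial counts, so a large mitochondrial share lowers the CPM of every other gene. With the 13 mitochondrial genes taken out of the denominator, here called nuclear CPM, rho was -0.70 against a median of -0.33 over the same genes, and 6 genes had a lower value. On that scale the values within animals were -0.51, -0.25, -0.45 and -0.59 in the order of gilts above, and -0.47 without the granulosa-led libraries. The stage medians of RARRES1 in nuclear CPM were 603, 796, 730, 2362 and 595 from stage 1 to stage 5. Its stage 4 oocytes ranged from 369 to 28092.

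ZP3 ran the other way. RARRES1 and ZP3 had a rho of -0.59 on CPM and -0.69 on nuclear CPM, and 4 of 583 genes had a lower value on nuclear CPM. The nuclear CPM value was negative in every gilt, at -0.20 in gilt 201, -0.73 in gilt 205, -0.62 in gilt 801 and -0.41 in gilt 803. Without gilt 803 it was -0.45, and without the granulosa-led libraries -0.42. On CPM the same subsets gave -0.15 and -0.19.

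**Figure D2:**
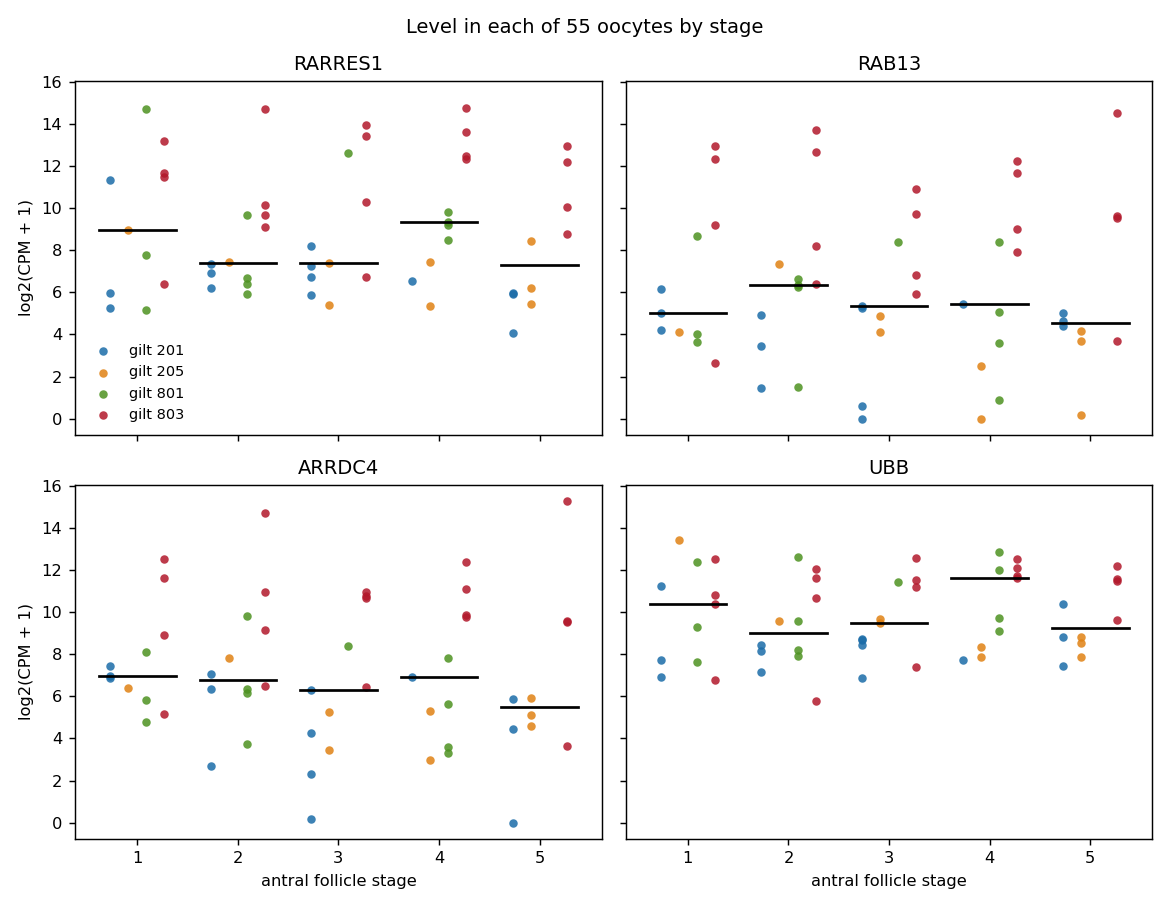
Level of each gene in each of 55 oocytes, as log2(CPM + 1), by antral follicle stage. Each point is 1 oocyte coloured by gilt, and black bars are the medians of the oocytes at a stage. The points of gilt 803 lie highest for RARRES1, RAB13 and ARRDC4 at most stages, and the stage medians differ little beside the spread within a stage.

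RAB13 and ARRDC4 shared their extremes. RAB13 peaked at 23622 CPM (231897 counts) and ARRDC4 at 39227 CPM (385079 counts) in the same oocyte, a stage 5 oocyte of gilt 803 with 9816782 counts in all, 3.03% of them mitochondrial. In that oocyte ZP3 stood at 2.14 CPM, the lowest of the 55, and granulosa markers at 7915 CPM. The next highest oocyte was again the same for both genes, a stage 2 oocyte of gilt 803 with only 151104 counts, at 13170 CPM of RAB13 and 26379 CPM of ARRDC4. Both genes thus exceeded 10000 CPM in an oocyte of ordinary depth and in the shallowest library. The stage 1 maxima of both, 7806 CPM of RAB13 and 5770 of ARRDC4, also came from a shallow library of gilt 803, with 220085 counts.

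At the other end RAB13 had 0 counts in 2 oocytes, a stage 3 oocyte of gilt 201 and a stage 4 oocyte of gilt 205, where 3 counts would correspond to 0.287 and 0.243 CPM. A stage 5 oocyte of gilt 205 held 2 counts of RAB13, which is 0.118 CPM with a 95% Wilson interval from 0.0324 to 0.431. ARRDC4 had 0 counts in a stage 5 oocyte of gilt 201, where 3 counts would be 0.247 CPM. Such bounds speak of counting error alone, since amplified reads without molecular identifiers are not independent molecules. RAB13 exceeded 100 CPM in 20 oocytes and 1000 CPM in 8, and ARRDC4 exceeded these levels in 26 and 10 oocytes.

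RAB13 ranged from 5.28 to 7806 CPM with a median of 31.5 at stage 1, from 1.71 to 13170 with a median of 80.8 at stage 2, and from 0 to 1893 with a median of 39.2 at stage 3. At stage 4 it ranged from 0 to 4737 CPM with a median of 42.6, and at stage 5 from 0.118 to 23622 with a median of 22.2. Each stage thus held oocytes from below 6 CPM to above 1000. ARRDC4 ranged from 26.2 to 5770 CPM with a median of 123 at stage 1, from 5.52 to 26379 with a median of 111 at stage 2, and from 0.125 to 2006 with a median of 78.0 at stage 3. Its range was 6.97 to 5256 CPM with a median of 121 at stage 4 and 0 to 39227 with a median of 44.9 at stage 5. For both genes the ranges of single oocytes overlapped between all stages, and neighbours in the order of stage medians did not differ beyond that spread. These ranges pool the gilts, and gilt 803 held the highest value of both genes at every stage. Stages are compared over gilts further below.

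Over all 55 oocytes the animals differed more than the stages. RAB13 had a median of 26.5 CPM in gilt 201, 16.3 in gilt 205, 53.8 in gilt 801 and 759 in gilt 803, and ARRDC4 had 67.4, 37.4, 62.8 and 1270 CPM. All 10 of the highest oocytes for RAB13, and all 10 for ARRDC4, were of gilt 803. Of these, 8 for RAB13 and 9 for ARRDC4 were among the 15 granulosa-led libraries. The highest RAB13 value was 69.4 CPM in gilt 201, 163 in gilt 205 and 401 in gilt 801. Gilt 803 was not uniformly high, since its lowest oocytes held 5.28 CPM of RAB13 and 11.5 CPM of ARRDC4. Differences between gilts took 49.6% of the squared deviations of log2 RAB13, 47.5% of those of ARRDC4, 48.0% of those of RARRES1 and 25.9% of those of UBB, beside a median of 21.2% over 597 genes of at least 100 CPM. On nuclear CPM the gilt shares were 30.6%, 24.6%, 35.3% and 8.57% in the same order, beside a median of 15.5% over 584 genes. Without the granulosa-led libraries they were 23.2%, 16.5%, 30.5% and 21.2% on CPM, beside a median of 20.8%. On nuclear CPM without those libraries they were 10.6%, 3.80%, 18.0% and 20.1%, beside a median of 13.8%. RAB13 and ARRDC4 then lay below the median gene. Stages took 1.09%, 3.26%, 5.26% and 4.23% on CPM over 55 oocytes, beside a median of 6.74%. Oocytes of the same gilt and stage still differed, and 39.6% to 54.7% of the squares of the 4 genes lay there, beside a median of 56.0%. Gilt 803 was also the animal with the highest granulosa markers, at a median of 7990 CPM against 133 to 228 in the other animals, and with the lowest mitochondrial share, so the animal and these measures cannot be told apart in its oocytes.

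RAB13 and ARRDC4 were each other's nearest gene. Over 55 oocytes their rho was 0.87 on CPM and 0.83 on nuclear CPM, and 9 of the 10 highest oocytes of one were among the 10 highest of the other. Of 170236 pairs of genes of at least 100 CPM, 548 had a higher rho on nuclear CPM, where the median pair had 0.16. Within animals the CPM value was 0.39 in gilt 201, 0.40 in gilt 205, 0.92 in gilt 801 and 0.91 in gilt 803. Both remained positively related without gilt 803 (0.66, n = 35) and without the granulosa-led libraries (0.71, n = 40). The log2 ratio of ARRDC4 to RAB13 counts had a median of 0.56 over the 52 oocytes with counts of both, with quartiles of -0.22 and 1.87 and a range from -3.22 to 8.13. The pair therefore kept a similar order over oocytes without a fixed ratio. A stage 5 oocyte of gilt 205 had 2 counts of RAB13 and 559 of ARRDC4, and a stage 3 oocyte of gilt 201 had 299 and 32.

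Neither gene followed the mitochondrial share closely. RAB13 had a rho of -0.46 with it and ARRDC4 -0.49, both nearer to 0 than the median gene at -0.63. Within gilt 801 the sign was positive for both, at 0.42 and 0.50, and without gilt 803 the values were 0.11 and 0.03. They were 0.01 and -0.03 without the granulosa-led libraries. With ZP3 the values were -0.54 and -0.51 on CPM over 55 oocytes, but -0.19 and -0.10 without gilt 803 and -0.22 and -0.11 without the granulosa-led libraries. With the granulosa marker sum they were 0.69 and 0.64 in all, 0.18 and 0.30 within gilt 803, and 0.43 and 0.27 without the granulosa-led libraries. The total count of a library went the opposite way, with -0.50 for RAB13 and -0.46 for ARRDC4, and -0.25 for RARRES1 and 0.03 for UBB. The part of library depth in these levels was not tested. In the 52 libraries of at least 1000000 counts the rho of RAB13 with ARRDC4 was 0.85.

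**Figure D3:**
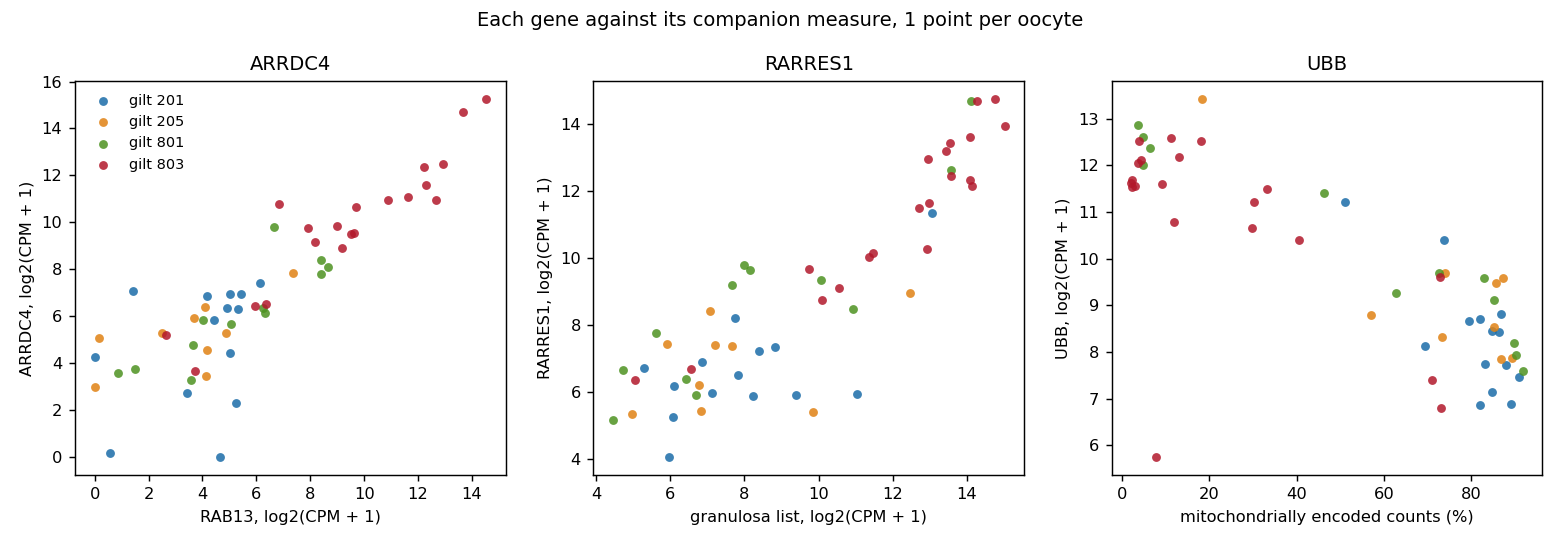
ARRDC4 against RAB13, RARRES1 against the summed granulosa and cumulus markers, and UBB against the share of mitochondrially encoded counts, with 1 point per oocyte coloured by gilt. Gene levels are log2(CPM + 1). The rho values are 0.87, 0.83 and -0.76, and the lowest UBB point is the library of 151104 counts.

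UBB was detected in all 55 oocytes and exceeded 100 CPM in 54. It ranged from 110 to 10969 CPM with a median of 1343 at stage 1, from 52.9 to 6201 with a median of 554 at stage 2, and from 115 to 6117 with a median of 714 at stage 3. At stage 4 it ranged from 212 to 7438 CPM with a median of 3103, and at stage 5 from 175 to 4615 with a median of 617. Stage 4 had the highest median, but its range lay inside that of stage 1. The medians by gilt were 311 CPM in gilt 201, 443 in gilt 205, 796 in gilt 801 and 3002 in gilt 803. The highest oocyte, at 10969 CPM, was the only stage 1 oocyte of gilt 205, so gilt 803 did not hold the top of this gene. The lowest value, 52.9 CPM, came from 8 counts in the library of 151104 counts, with a 95% Wilson interval from 26.8 to 104 CPM, in which RAB13 and ARRDC4 were at their next to highest.

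The level of UBB was tied to the mitochondrial share, with a rho of -0.76 over all oocytes and -0.55, -0.47, -0.97 and -0.52 within gilts 201, 205, 801 and 803. It was -0.68 without the granulosa-led libraries. All 10 of its highest oocytes had a mitochondrial share under 20%. That was not particular to UBB, since the same held for 9 of the 10 highest oocytes of RAB13, 9 of ARRDC4 and 7 of RARRES1. On nuclear CPM the rho was -0.40, near the median gene at -0.33, and the SD of log2 UBB fell from 1.98 to 1.25. On that scale the stage medians were 2253, 2655, 3046, 3411 and 3005 from stage 1 to stage 5, and the gilt medians 1949, 2533, 4034 and 3294. The change of denominator took the SD of RARRES1 from 2.97 to 2.02, that of RAB13 from 3.67 to 3.50 and that of ARRDC4 from 3.31 to 3.07. UBB and RARRES1 thus narrowed, and the other pair hardly did.

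In gilt 801 several oocytes held high UBB beside low RAB13 and ARRDC4. Its stage 4 oocyte 3 held 7438 CPM of UBB, 0.836 of RAB13, 11 of ARRDC4 and 8472 of ZP3, with a mitochondrial share of 3.62%. Its stage 2 oocyte 4 held 6201 CPM of UBB, 1.80 of RAB13, 12.4 of ARRDC4 and 7446 of ZP3, with a share of 4.68%. Its stage 4 oocyte 2 held 4107 CPM of UBB, 11 of RAB13, 8.75 of ARRDC4 and 3671 of ZP3, with a share of 4.73%. In these 3 oocytes the granulosa markers stood at 202 to 284 CPM and RARRES1 at 584 to 881 CPM, and ZP3 lay on both sides of its median of 4951 CPM over all oocytes. On nuclear CPM their ZP3 values of 8790, 7812 and 3853 were all below its median of 16147. One further oocyte of gilt 801 with a low share, stage 1 oocyte 3 at 6.26%, went the other way for the pair. It held 401 CPM of RAB13, the highest of that gilt, and 270 of ARRDC4 beside 5266 of UBB, with 17680 CPM of granulosa markers and 45.6 of ZP3. Within gilt 801 the rho on CPM of UBB with RAB13 was -0.32 and with ARRDC4 -0.41, whereas it was positive in the other 3 gilts for both.

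**Figure D4:**
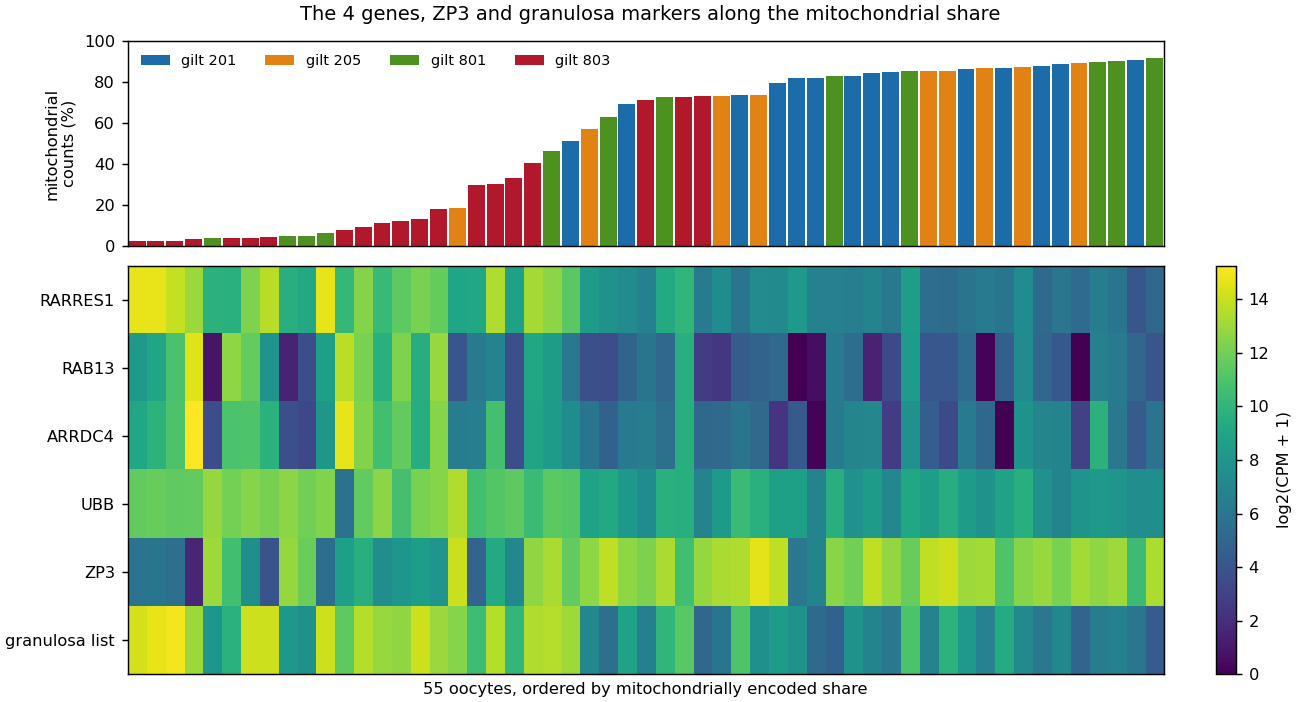
The 55 oocytes ordered by their share of mitochondrially encoded counts (bars, percent, coloured by gilt), with log2(CPM + 1) of the 4 genes, ZP3 and the summed granulosa and cumulus markers as colours below. RARRES1 and UBB are brighter at the low end of the share, RAB13 and ARRDC4 change together, and ZP3 is mostly bright at the high end.

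The other pairs were less alike than RAB13 and ARRDC4. RARRES1 and UBB had a rho of 0.74 on CPM, which was 0.71 without gilt 803, 0.71 without the granulosa-led libraries and 0.42 on nuclear CPM. RARRES1 with RAB13 had 0.61, and with ARRDC4 0.65, but within gilts the first ran from -0.13 to 0.19 on CPM, and without gilt 803 the values were 0.10 and 0.24. They were 0.19 and 0.27 without the granulosa-led libraries. UBB with RAB13 had 0.40 and with ARRDC4 0.38, on nuclear CPM 0.21 and 0.10, and without the granulosa-led libraries 0.20 and 0.11 on CPM. UBB and ZP3 had -0.33, which was 0.15 without gilt 803 and 0.08 without the granulosa-led libraries. These values describe oocytes that share gilts, libraries' depth and a denominator.

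**Figure D5:**
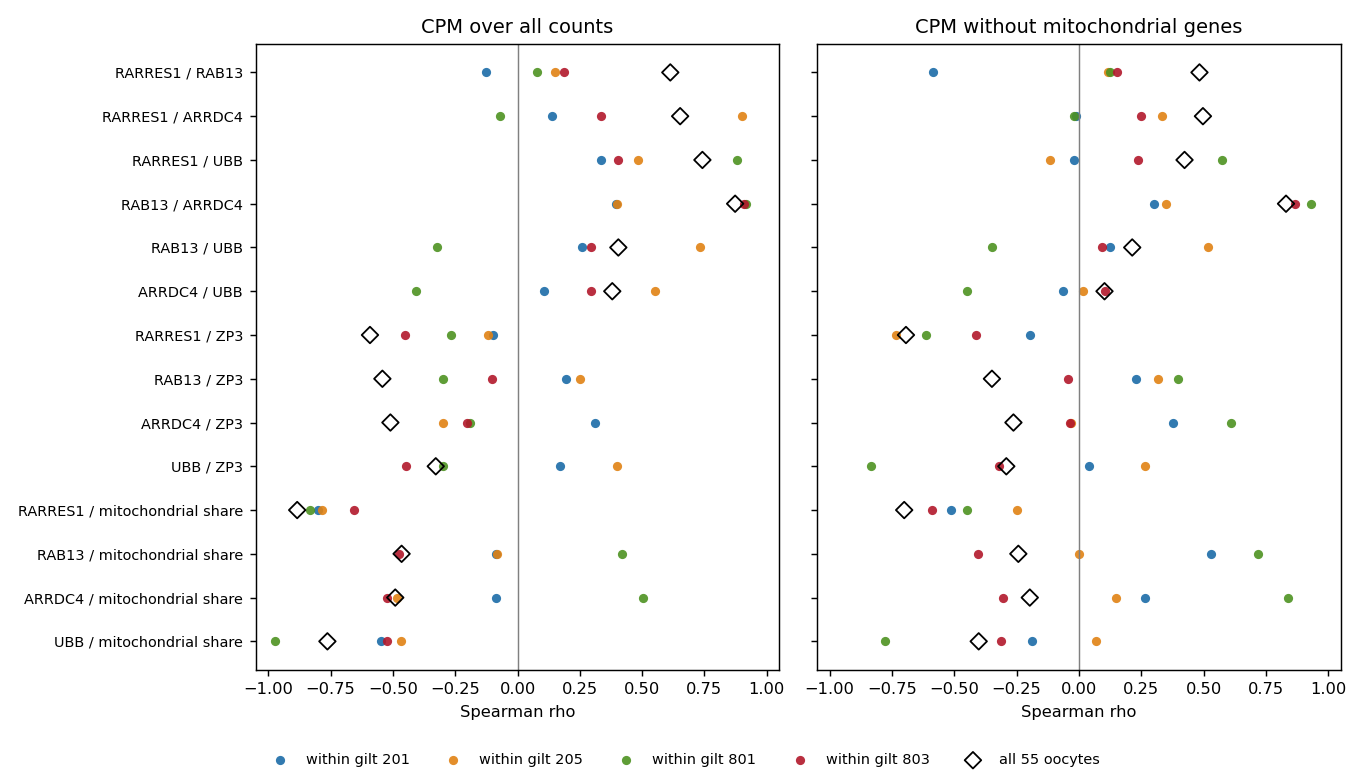
Spearman rho of the 6 pairs of genes, of each gene with ZP3 and of each gene with the mitochondrial share, on CPM (left) and on CPM without the mitochondrial genes (right). Open diamonds are all 55 oocytes and coloured points the oocytes of single gilts (n = 14, 9, 12 and 20). RAB13 with ARRDC4 is positive in every gilt on both scales.

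For the stage tests the counts of a gilt's oocytes at a stage were added up, giving 19 sums, with gilt as a block. The test over all stages called 0 of 15637 genes (0%), the trend called 2 (0.0128%) and stage 5 against stage 1 called 0 (0%), all at an adjusted p below 0.05 in edgeR. At an unadjusted p below 0.05 the counts were 840, 900 and 840. DESeq2 called 47, 161 and 365 genes on the same sums and limma-voom called 0, 0 and 0, and none of the 4 genes was among those any of these tools called. The 2 genes of the trend were C1QA and ZDBF2, named after their values were seen. The common biological coefficient of variation of the sums was 1.24.

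The RARRES1 sums averaged 2437 ± 2058 CPM in the 4 gilts with stage 1 and 1026 ± 1628 CPM in the 3 with stage 5 (mean ± SD, n = 4 and 3). In the 3 gilts with both stages RARRES1 stood lower at stage 5 in each on CPM, at 43.2 against 896 CPM in gilt 201, 131 against 493 in gilt 205 and 2905 against 3688 in gilt 803. On nuclear CPM it was lower in gilts 201 and 803, at 274 against 3730 and 3987 against 8738, and level in gilt 205, at 603 against 603. The fitted difference of stage 5 from stage 1 was -2.29 ± 0.97 (SE, log2), with an adjusted p of 0.904 by edgeR's quasi-likelihood test, and -1.65 without the granulosa-led libraries. The fitted trend was -0.48 ± 0.20 per stage (unadjusted p 0.0275, adjusted p 0.815, edgeR), against a median of -0.06 over all genes tested, and it did not pass. The trend of RARRES1 was negative under each of the 14 alternatives, between -0.57 and -0.26, and passed under none.

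RAB13 sums averaged 170 ± 251 CPM at stage 1 against 1810 ± 3104 at stage 5, and ARRDC4 sums 181 ± 160 against 2955 ± 5064 (mean ± SD over 4 and 3 gilts). The stage 5 means rested on gilt 803, at 5395 CPM of RAB13 and 8802 of ARRDC4, whereas gilts 201 and 205 held 25.6 and 9.82 CPM of RAB13 and 25.9 and 36.0 of ARRDC4. Against stage 1 both genes were higher in gilt 803 and, on CPM, lower in gilts 201 and 205. On nuclear CPM the direction turned in gilt 205 for both genes, with 45.3 at stage 5 against 19.9 at stage 1 for RAB13 and 166 against 102 for ARRDC4. In gilt 201 RAB13 then stood at 162 against 159, and ARRDC4 at 164 against 566. The fitted difference of stage 5 from stage 1 was 1.41 ± 1.23 for RAB13 (adjusted p 0.983, edgeR) and 1.55 ± 1.17 for ARRDC4 (adjusted p 0.966, edgeR). Without the single stage 5 oocyte of gilt 803 that held the maxima, they were -0.54 ± 1.14 and -0.99 ± 0.93, so 1 library set the sign. Without the granulosa-led libraries they were -0.57 and -1.51.

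UBB sums averaged 3447 ± 5018 CPM at stage 1 against 1326 ± 1461 at stage 5 (mean ± SD over 4 and 3 gilts), with 10969 CPM in gilt 205 at stage 1. Its fitted difference was -0.10 ± 0.77 (adjusted p 1.00, edgeR) and its trend -0.07 ± 0.16 per stage. The sign was positive without gilt 205, at 0.96 and 0.19, and the difference was 0.44 without the granulosa-led libraries. None of the 4 genes passed the test over all stages (unadjusted p 0.131 for RARRES1, 0.434 for RAB13, 0.324 for ARRDC4 and 0.854 for UBB in edgeR's quasi-likelihood fit across all genes).

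The related genes did not share these levels. Of 24 genes of retinoid handling and latexin relatives, 23 were tested and none was called in any of the 3 stage tests, beside the 0%, 0.0128% and 0% of all genes. With so few genes called at all, this does not set the list apart. RARRES1 was the only one of them with a mean of at least 100 CPM. The median rho of the list with RARRES1 on nuclear CPM was 0.08, beside 0.04 over 14655 genes with counts.

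Of 19 relatives, partners and junction genes of RAB13, 18 were tested and none was called in any edgeR stage test. Of all genes these tests called 0%, 0.0128% and 0%, so this does not show that the listed genes kept their level. Those of at least 100 CPM were RAB7A, a GTPase of late endosomes, at 215 CPM, GDI2, which extracts Rab proteins from membranes, at 199, and RAB11A, of recycling endosomes, at 142. Their rho with RAB13 on nuclear CPM was -0.21, 0.06 and -0.54. In the whole list 2 of 17 had a positive value, with a median of -0.30, beside 2240 of 14655 genes and a median of -0.21. RAB8A and RAB10, the close relatives of RAB13, had means of 26.3 and 82.9 CPM and values of -0.13 and -0.22.

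Of 17 alpha-arrestins, TXNIP and its regulators, 14 were tested and none was called, beside 0%, 0.0128% and 0% of all genes in the 3 stage tests. ARRDC3, another alpha-arrestin, had a mean of 227 CPM and a median of 4.92, and TXNIP, the thioredoxin-binding alpha-arrestin, 175 and 6.62. Their rho with ARRDC4 was 0.29 and 0.40 on nuclear CPM, and both were closer in order to RARRES1, at 0.61 and 0.49. Their fitted trends were -0.84 ± 0.29 and -0.86 ± 0.33 per stage (adjusted p 0.545 and 0.699, edgeR), against 0.10 ± 0.29 for ARRDC4. In the list 3 of 14 values with ARRDC4 were positive, with a median of -0.29, beside 1925 of 14655 genes and a median of -0.22.

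Of 17 ubiquitin genes 15 were tested and none was called in any edgeR stage test. Those tests called 0%, 0.0128% and 0% of all genes, so absence of change in the list is not shown. RPS27A, which encodes ubiquitin fused to a ribosomal protein, had 0 counts in every oocyte. The ubiquitin coding repeats of the ubiquitin genes are nearly identical, and how reads that fit several of them were counted is not stated, so the split of counts between UBB and the other ubiquitin genes is uncertain. UBE2D3 and UBE2C, conjugating enzymes, had means of 483 and 217 CPM, and OTUB1 and UCHL1, deubiquitinases, 626 and 244. Their rho with UBB on nuclear CPM was 0.41, 0.14, -0.08 and 0.12. The median of the list was 0.19, beside 0.12 over all genes.

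The nearest genes by rho on nuclear CPM, among the 583 others of at least 100 CPM, differed between the 4 genes. For RARRES1 they were RPL7, H3-3A, RPL38, RPS3 and RPL5, between 0.72 and 0.73, which are 4 ribosomal protein genes and a replacement histone. For RAB13 they included ARRDC4, TRAK2 at 0.73, CFDP1 at 0.71 and RPL6 at 0.69. For ARRDC4 they were RAB13, TRAK2 at 0.79, CFDP1 at 0.69, RPL23 at 0.68 and RPL6 at 0.67. TRAK2, an adaptor of mitochondrial transport along microtubules, and CFDP1, a chromatin-associated protein, thus stood near both over all oocytes. For UBB they were HMGN2, a nucleosome-binding protein, at 0.74, CHCHD2, a mitochondrial protein encoded in the nucleus, at 0.66, and the ATP synthase subunits ATP5F1A, ATP5F1C and ATP5PO at 0.65, 0.63 and 0.62. The lowest rho within a gilt was 0.62 for HMGN2 with UBB. Among the 5 neighbours of RARRES1 it ran from -0.23 for RPL5 to 0.19 for RPS3, with -0.08 for RPL7. For TRAK2 it was -0.05 with RAB13 and 0.38 with ARRDC4, and for CFDP1 0.40 and 0.22. Without the granulosa-led libraries the neighbours' values lay between 0.48 and 0.73. Ribosomal protein, histone and HMGN genes have near-identical copies elsewhere in mammalian genomes, so their counts are uncertain.

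Placed by rank, ARRDC4 was number 1 of 583 for RAB13 and the reverse, RARRES1 was number 67 for RAB13 and 41 for ARRDC4, and UBB was number 213 and 247 for them. The 4 genes thus fell into 1 close pair and 2 genes with other neighbours.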

How the data were processed

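Per the labels' protocols, single oocytes were lysed, the cytoplasmic RNA was taken off the nucleus and Smart-seq2 libraries were made with 16 cycles of cDNA amplification. The submitters' processing notes name StringTie 1.2.2, featureCounts, HISAT2 2.1.0 and Trim Galore 0.4.3 with no roles; the build, the annotation and the strandedness of counting were not given in the sources used here. The authors deposited raw counts per gene, 1 column per oocyte, with totals from 151104 to 38282850. A second deposited table with other values, named for TPM, had column sums from 40073.5 to 2990163, so its unit is unknown; it held 3 of the 4 genes and served only as an alternative for the spread. Symbols were matched to 14857 of 25880 gene IDs.

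CPM were computed from all counts, and nuclear CPM without 13 mitochondrially encoded protein genes; logs used a pseudocount of 1. Stages were tested on 19 gilt-by-stage sums with edgeR 4.0.16 (R 4.3.3, TMM, filterByExpr by stage, quasi-likelihood F test, stage plus gilt, Benjamini-Hochberg over 15637 genes, threshold 0.05); the script was tested on simulated data. Alternatives used DESeq2 1.42.0, limma 3.58.1, other filters, scalings, libraries and animals. Spread and gilt shares without the granulosa-led libraries, and spread ranks and gilt shares on nuclear CPM, were added after the data were seen. Gilt numbers pair the sums because a number is 1 animal. Spearman coefficients were correlations of ranks made with scipy 1.17.1, and Wilson intervals used statsmodels, whose version was not recorded. No pair of columns was identical. Besides the 4 genes and ZP3, named genes were the 5 nearest by rho on nuclear CPM with a mean of at least 100 CPM and listed genes at that level; RAB8A and RAB10 were added after their values were seen. A few genes that the rule names are not reported here. The genes and lists were chosen with earlier results of these data known.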

Additional observations from a re-analysis of the deposited data

Results flagged for a closer look

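Within 20 groups of 4 to 10 values, 11 values of the 4 genes lay further from their nearest neighbour than Dixon's 95% limit allows. Chance flags about 1 in 20 groups, but the genes were chosen for their wide range, so the number of such values is a description and is not read against chance. A single stage 5 oocyte of gilt 803 stood apart from the other stage 5 oocytes for RAB13, at 23622 CPM, and for ARRDC4, at 39227 CPM. The other values were sums of 1 gilt that stood apart from the sums of the other gilts at the same stage. For gilt 803 they were RARRES1 at 18320 CPM at stage 2 and 13225 CPM at stage 4. RAB13 of gilt 803 stood apart at 545 CPM at stage 1, 1119 CPM at stage 2 and 1944 CPM at stage 4. ARRDC4 of gilt 803 stood apart at 418 CPM at stage 1, 1023 CPM at stage 2 and 2086 CPM at stage 4. For UBB it was gilt 205 at stage 1, whose sum is 1 oocyte, at 10969 CPM. Gilt 803 is also the animal of 13 of the 15 libraries in which granulosa markers exceeded oocyte genes, and the part of that in these values was not tested.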

How the results depend on the processing

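None of the 4 genes passed a stage test under any of 14 alternatives, and the lowest adjusted p was 0.188 (RARRES1, stage 5 against stage 1, DESeq2). Numbers of genes called did move. The test over all stages called 216 without a filter on low counts, 47 with DESeq2, 34 with each oocyte as a library and 0 to 45 when a gilt was left out. The trend called 161 with DESeq2 and 0 with limma-voom, with each oocyte as a library, with no replicate block (gilt left out of the model), without mitochondrial genes, without granulosa-led libraries and without libraries under 1000000 counts, and 0 to 2 when a gilt was left out. Stage 5 against stage 1 called 23 without the filter, 365 with DESeq2 and 0 to 1 when a gilt was left out. Leaving out the block for gilt changed no other call. The causes were not tested.

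Signs changed for RAB13, ARRDC4 and UBB. The trend per stage was -0.50 for RAB13 and -0.60 for ARRDC4 without granulosa-led libraries, and -0.22 and -0.33 without the stage 5 oocyte with the maxima, an alternative added after the data were seen. It ranged from -0.29 to 0.41 and from -0.45 to 0.37 when a gilt was left out, with the lowest values without gilt 803. Stage 5 against stage 1 was -0.57 and -1.51 without granulosa-led libraries and -0.54 and -0.99 without that oocyte, and ranged from -0.15 to 1.77 and from -0.82 to 2.54 over gilts left out. Against 1.41 and 1.55 it was 2.98 and 3.48 with no replicate block and 2.31 and 2.55 with limma-voom. For RARRES1 it ranged from -3.09 to -1.29 over gilts left out. For UBB the trend was 0.10 and the difference 0.42 with each oocyte as a library, the difference was 0.44 without granulosa-led libraries, and over gilts left out they ranged from -0.23 to 0.19 and from -0.57 to 0.96.

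The median SD of log2 CPM over the 4 genes was 3.14, and 2.55 with mitochondrial genes out of the denominator, 2.16 without granulosa-led libraries and 2.21 to 3.31 over gilts left out, lowest without gilt 803. The median rho over the 6 pairs was 0.63, and 0.23 on deviations from gilt-and-stage means, 0.24 without granulosa-led libraries and 0.21 to 0.70 over gilts left out. Depth limits low values: 3 counts equal 19.9 CPM in the shallowest library and 0.0784 CPM in the deepest.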
